A study of Mus musculus and Mus musculus musculus x Mus musculus castaneus with 8 samples.

Results

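Open chromatin of C2C12 cells, a mouse myoblast line, was profiled by ATAC-seq from 50000 cells and from 1000 cells, and the 2 resulting peak lists are compared here. The list from 50000 cells held 52697 peaks and the list from 1000 cells held 34771 peaks, together 87468 of the 151729 peaks in the 5 lists of the series. All peaks of both lists were taken. Each list stood for 2 libraries of the same cell number, and it recorded peak positions alone, at a false discovery rate of 0.01. The other 3 lists came from mouse embryonic fibroblasts (MEFs), with 3000 cells per library. They covered donor MEFs (1 library, 39592 peaks), MEFs 48 h after nuclear transfer (NT) into Xenopus laevis oocytes (2 libraries, 8257 peaks) and MEFs 48 h after NT into oocytes overexpressing Toca1 (1 library, 16412 peaks). By the labels the C2C12 cells carry the strain name C3h, have no treatment listed and grew in DMEM with 10% FBS, as the MEFs did, while the MEFs came from embryos of a cross of Mus musculus musculus with Mus musculus castaneus and were permeabilized for NT. By the protocol in the labels, the 1000-cell material went straight from transposition to amplification without the kit purification that the other libraries had, the transposon reaction was scaled to the cell number, and the first amplification varied in cycles with it, so cell number and these steps cannot be told apart. C2C12 is a single cell line, and both cell numbers model that line only.

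ATAC-seq uses the Tn5 transposase, which inserts sequencing adaptors where DNA is not wrapped tightly in nucleosomes, so that reads gather at active promoters, enhancers and insulators. A peak caller then marks intervals where reads exceed the local background. Promoters rich in CpG dinucleotides tend to be open in most cell types, whereas enhancers are often open in a single lineage. Fewer cells give fewer distinct DNA fragments, and a site can then be missed although it is open. Because the lists hold no score and no read number, neither library depth nor the height of any peak is known, and intervals given below cover counting error over peaks only. With 1 list per cell number there is no replicate check and no test of the difference between the lists. The myoblast identity of the cells could not be checked against marker genes, since no annotation in the build of the lists (mm9) was used. Positions of peaks are given in mm9.

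A few promoters show the kind of sequence at issue. For genes that the study's own tables place at peaks gained after NT, the sites at the start of Entpd5, an endoplasmic reticulum nucleotidase, and Tnks2, a tankyrase, had overlapping peaks in both C2C12 lists. Those at the start of Galc, the lysosomal galactosylceramidase, and Tmem9b, a lysosomal membrane protein, had a wide 50000-cell peak with no 1000-cell peak. Their promoters from 250 bases before to 50 bases after the start are shown as RefSeq gives them for GRCm38.p6, 5′ to 3′, with CpG dinucleotides in capitals. They serve to compare base composition between promoters found at both cell numbers and promoters found at 1 only.
Entpd5: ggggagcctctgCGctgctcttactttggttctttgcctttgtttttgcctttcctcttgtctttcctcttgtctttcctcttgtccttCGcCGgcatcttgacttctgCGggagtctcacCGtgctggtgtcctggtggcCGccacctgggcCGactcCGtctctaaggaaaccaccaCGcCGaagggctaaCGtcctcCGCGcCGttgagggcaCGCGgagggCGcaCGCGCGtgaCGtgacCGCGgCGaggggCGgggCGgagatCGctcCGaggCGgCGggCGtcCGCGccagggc
Tnks2: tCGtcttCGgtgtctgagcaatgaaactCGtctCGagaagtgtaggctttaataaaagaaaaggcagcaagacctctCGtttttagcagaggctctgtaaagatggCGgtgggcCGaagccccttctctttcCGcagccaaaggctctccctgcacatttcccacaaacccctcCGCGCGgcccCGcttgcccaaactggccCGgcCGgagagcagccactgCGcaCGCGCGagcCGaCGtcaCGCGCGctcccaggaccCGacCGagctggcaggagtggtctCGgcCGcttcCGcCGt
Galc: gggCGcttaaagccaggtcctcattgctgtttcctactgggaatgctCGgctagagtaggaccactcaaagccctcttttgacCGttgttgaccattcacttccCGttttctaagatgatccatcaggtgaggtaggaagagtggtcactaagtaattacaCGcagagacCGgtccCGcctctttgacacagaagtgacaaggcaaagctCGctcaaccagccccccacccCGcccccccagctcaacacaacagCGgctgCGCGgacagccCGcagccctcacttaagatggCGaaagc
Tmem9b: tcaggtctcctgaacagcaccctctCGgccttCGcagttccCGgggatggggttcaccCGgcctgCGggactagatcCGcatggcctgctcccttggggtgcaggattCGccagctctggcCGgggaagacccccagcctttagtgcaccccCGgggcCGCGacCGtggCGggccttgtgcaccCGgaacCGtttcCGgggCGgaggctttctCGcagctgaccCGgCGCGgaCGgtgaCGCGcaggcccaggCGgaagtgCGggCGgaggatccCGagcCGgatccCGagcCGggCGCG

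The Entpd5 promoter (chr12:84408980-84409279, minus strand) held 33 CpGs and the Tnks2 promoter (chr19:36833982-36834281, plus strand) held 29. Among the promoters seen from 50000 cells only, Tmem9b (chr7:109752214-109752513, minus strand) held 33 CpGs, as many as Entpd5, and Galc (chr12:98259410-98259709, minus strand) held 14. The median over all 32851 promoters in the RefSeq table was 7 CpGs and the upper quartile was 20, so 3 of these 4 promoters were above the upper quartile. Both groups included a CpG-rich promoter, and these 4 sequences do not separate by CpG number. Other named start sites with both lists held 30 (Kif21a) and 11 (Haghl) CpGs. Those with a 50000-cell peak alone held 41 (Prkacb), 26 (Mocs3), 47 (Map3k5) and 15 (Arhgap44). Haghl and Prkacb have 3 promoter entries, of which the first was taken.

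Few sites were called at both cell numbers. In the paper, samples of 1000 and 50000 cells grouped together when clustered by their reads around start sites. Similarity of reads there is another measure than the overlap of called peaks given here. A 1000-cell peak overlapped 5.62% of the 50000-cell peaks by at least 1 bp, and these 2963 peaks are called recovered. Seen from the other list, 8.48% of the 1000-cell peaks (2950) overlapped a 50000-cell peak and are called shared, and the other 31821 are called unshared. Matches were mostly 1 to 1. When each 1000-cell peak was assigned to the 50000-cell peak it shared most bases with, 39 of the 50000-cell peaks held 2 or more. Peaks of the 1000-cell list that touched 2 or more 50000-cell peaks were not counted separately. The bases of the 1000-cell list were 8.86 times as frequent inside 50000-cell peaks as the length of those peaks would give if bases lay evenly. The 50000-cell peaks covered 0.921% of the span of the 20 chromosomes and held 8.16% of the 1000-cell bases. The share of recovered peaks ranged from 4.09% on chromosome 14 to 7.37% on chromosome 17. The share of shared 1000-cell peaks ranged more widely, from 4.16% on chromosome X to 11.05% on chromosome 15.

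A shared peak was usually a smaller interval within the larger one. Of the 2950 shared 1000-cell peaks, 58.0% (interval 56.2% to 59.8%) lay wholly inside the 50000-cell peak. The median ratio of their widths was 0.50, the median overlap was 257 bp and the median distance between the centres was 114.5 bp. The centre of the 1000-cell peak fell outside the 50000-cell peak in 11.5% of them (interval 10.4% to 12.7%). When each peak had to cover at least 50% of the other, 3.13% of the 1000-cell peaks and 2.06% of the 50000-cell peaks were left as common to both lists.

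Wide 50000-cell peaks were recovered most often. The median recovered peak was 622 bp wide (quartiles 416 and 855.5 bp), and the median of the others was 382 bp (quartiles 274 and 560 bp). When the list was split into 10 classes of equal size by width, recovery was level in the 3 narrowest, which span 150 to 296 bp, at 1.92%, 1.92% and 2.11%. It then rose with each class, through 3.34% in the fifth (340 to 392 bp) and 7.55% in the eighth (531 to 637 bp), and was 16.8% (interval 15.8% to 17.9%) in the widest. The widest and the narrowest class differed by 14.9 percentage points (Newcombe interval 13.9 to 16.0), and the difference was positive on 20 of 20 chromosomes, from 6.78 points on chromosome X to 22.9 on chromosome 15. Recovery was not complete at any width. Among the widest 1% of peaks, 22.2% were recovered (117 of 526), and among the 52 widest peaks, all at least 1579 bp, 14 were.

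A wide peak offers more bases for an overlap of 1 bp, so the centres of 1000-cell peaks were also counted per Mb of 50000-cell peak. The count was 67.7 per Mb in the narrowest class, 47.0 in the second, 54.0 in the third, 59.2 in the fourth, 73.3 in the fifth, 90.9 in the sixth, 132 in the ninth and 166 in the widest. The 1000-cell list held 13.2 peaks per Mb over the whole span. From the second class on it was higher in each wider class, and it passed the value of the narrowest class in the fifth. The rise with width was thus smaller per base than per peak. With the reciprocal overlap of 50%, which a pair of very unequal widths cannot meet, the difference between the widest and the narrowest class fell to 0.78 points.

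**Figure D1:**
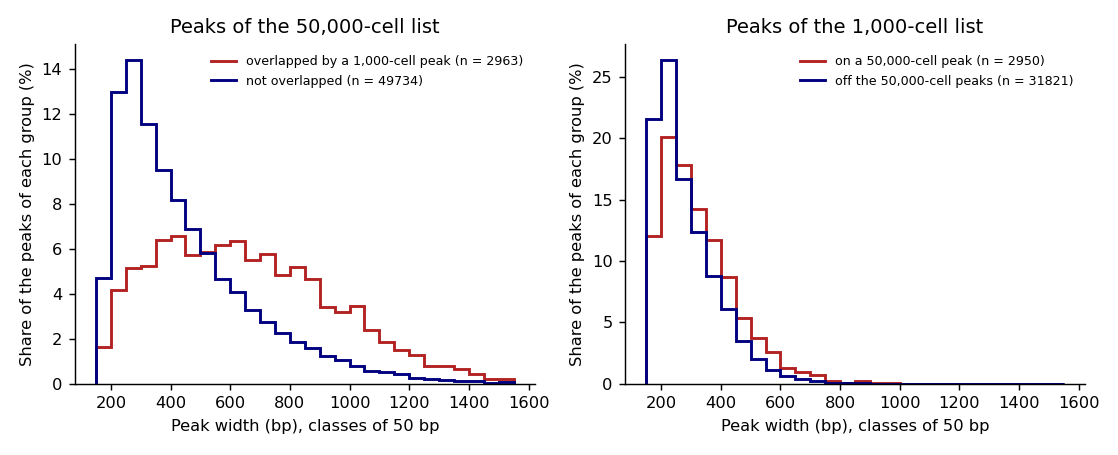
Peak widths in bp (x axis, classes of 50 bp, peaks beyond the axis not drawn) against the share of each group in percent (y axis), for recovered and other 50000-cell peaks on the left and for shared and unshared 1000-cell peaks on the right. On the left the recovered peaks reach far to the right of the others (medians 622 and 382 bp), whereas on the right the groups differ less (medians 299.5 and 255 bp).

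Sites that were also called in donor MEFs were recovered more often than sites that were not. Of the 25513 peaks of the 50000-cell list that overlapped a donor MEF peak, 8.70% (interval 8.36% to 9.05%) were recovered. Of the 27184 that did not, 1795 of which were called in a list after NT, 2.73% (interval 2.55% to 2.93%) were. The difference was 5.97 percentage points (Newcombe interval 5.57 to 6.37), and it was positive on 20 of 20 chromosomes, from 3.14 points on chromosome 13 to 8.56 on chromosome 15. Those on donor MEF peaks had a median width of 503 bp and the rest one of 321 bp. Within width classes the mean difference was 3.20 points. In the widest class 18.0% of the peaks shared with donor MEFs and 9.85% of the others were recovered. In the narrowest class the order was the opposite, at 1.36% (interval 0.810% to 2.26%) and 2.05% (interval 1.67% to 2.53%), with intervals that overlap.

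Recovery increased with the number of MEF lists in which a site was called. It was 2.56% for the 25389 peaks found in no MEF list, 5.47% for 19041 found in 1, 12.9% for 5488 found in 2 and 20.2% (interval 18.8% to 21.8%) for 2779 found in all 3. The last group exceeded the first by 17.7 points, or by a mean of 7.71 points within width classes. The median width rose alongside, from 318 to 434, 637 and 774 bp. The difference was above 0 on each of 20 chromosomes but was only 0.28 points on chromosome X. Among sites called in 1 MEF list, recovery was 5.54% (970 of 17509) for donor MEFs, 4.80% (11 of 229, interval 2.70% to 8.40%) after NT and 4.60% (60 of 1303, interval 3.59% to 5.88%) after NT with Toca1, and the first value lies inside both intervals. Sites called in both NT lists but not in donor MEFs were recovered at 7.98% (21 of 263, interval 5.28% to 11.9%).

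**Figure D2:**
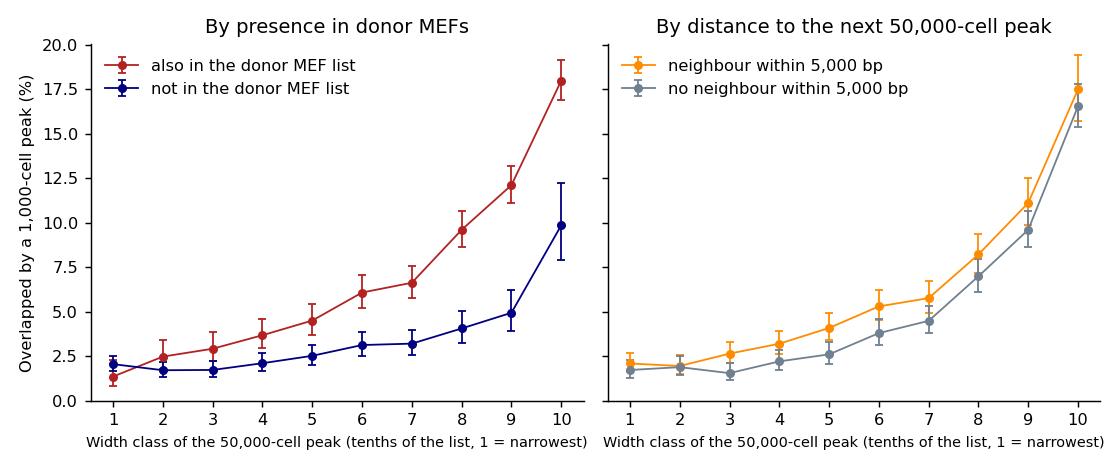
Share of 50000-cell peaks overlapped by a 1000-cell peak (y axis, percent, with 95% Wilson intervals) in 10 classes of equal size by peak width (x axis, 1 is the narrowest), split by presence in the donor MEF list (left) and by a neighbouring 50000-cell peak within 5000 bp (right). Peaks also in donor MEFs lie above the others from the second class on, reaching 18.0% against 9.85%, and peaks with a neighbour lie slightly above those without.

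Peaks that lay close together were not recovered more often as a whole. Of the 24735 peaks with another 50000-cell peak within 5000 bp, 5.56% (interval 5.28% to 5.85%) were recovered, and of the 27962 without, 5.68% (interval 5.41% to 5.96%). The difference of -0.12 points had an interval from -0.51 to 0.27 and was positive on 5 of 20 chromosomes. Peaks with a neighbour were narrower, with a median of 369 bp against 416 bp. Within width classes, the mean difference was 1.05 points in favour of peaks with a neighbour, and with a reciprocal overlap of 50% the difference was 0.52 points. By distance, recovery was 6.25% for peaks up to 150 bp from the next, between 5.27% and 5.85% for each class of distance from 150 to 50000 bp, and 4.82% (interval 4.14% to 5.60%) for 3299 peaks farther than 50000 bp from any other.

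Peaks in dense stretches of open sites were recovered at a lower share than the whole list. In 226 stretches of 5 or more 50000-cell peaks with gaps of at most 5000 bp, 51 of 1242 peaks (4.11%, interval 3.14% to 5.36%) were recovered, beside 5.62% over all 50000-cell peaks, and 40 stretches held at least 1 of them. The peaks of these stretches were narrow, with a median of 338 bp. In the fourth width class of the whole list (296 to 340 bp), 2.71% were recovered. The stretch with most peaks, chr10:128355400-128376301, held 11 peaks over 20902 bp, of which 2 were recovered. The next, chr6:31008973-31032873 and chr19:9127514-9148853, held 9 peaks each, and none of these was recovered, although 1 and 2 peaks of the 1000-cell list lay within these stretches. The 1000-cell list was itself little clustered. Another peak of the same list lay within 5000 bp for 16.2% of its peaks, against 46.9% in the 50000-cell list, and its largest stretches, chr11:80307971-80326995 and chr1:167580073-167594496, held 5 peaks each.

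Single sites show the same range. The widest recovered 50000-cell peak, chr10:128240855-128242911, spanned 2057 bp, and the 1000-cell list marked 285 bp there. It was open in all 3 MEF lists. The next 4 were between 1722 and 1978 bp wide and held 1000-cell peaks of 246 to 320 bp. One of them, chr2:151355017-151356834, was in no MEF list. The widest 50000-cell peak, chr10:39450877-39453064, spanned 2188 bp and was called in donor MEFs and after NT with Toca1, but it had no 1000-cell peak. The other 4 of the 5 widest peaks without one were 1772 to 1941 bp wide, and each was called in at least 1 MEF list. Great width and presence in MEFs together therefore did not ensure a call from 1000 cells.

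The study's tables name genes for some of these sites, by position alone. The tables list peaks gained after NT far from any donor MEF peak, so a donor MEF peak is missing there by construction, and they are no sample of all C2C12 peaks. Of the 50000-cell peaks that such a peak after NT overlapped, 17 were recovered and 203 were not. The share of 7.73% had an interval from 4.88% to 12.03%, which includes the 5.62% of all 50000-cell peaks. The 2.73% of those not in donor MEFs is no like base, since 25389 of these 27184 peaks were in no MEF list. Among 50000-cell peaks called after NT but not in donor MEFs, recovery was 7.98% (21 of 263) where Toca1 oocytes also had a peak. It was 4.80% (11 of 229) where they had none. The 17 sites included 6 where the table peak lay within 250 bp of a start site. At Entpd5 the 50000-cell peak (chr12:85749257-85750520) was 1264 bp wide and the 1000-cell peak 391 bp. At Tnks2 (chr19:36908400-36909409) the widths were 1010 and 282 bp. At Rbm20, a splicing regulator of titin in muscle, they were 875 and 458 bp, at Kif21a, a kinesin motor, 796 and 370 bp, at Tspyl5 600 and 367 bp, and at Haghl 368 and 255 bp.

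Other recovered sites lay away from start sites. Within Eya1, a transcriptional co-activator of muscle development, the widths were 836 and 298 bp, and within Hkdc1, which encodes a hexokinase-like protein, 539 and 188 bp. The tables name as nearest genes Pth2r, a receptor for parathyroid hormone family peptides (392 and 380 bp), and Adcyap1, which encodes the neuropeptide PACAP (197 and 184 bp). Epha5, an ephrin receptor, was nearest to a pair of sites (314 and 262 bp, and 191 and 185 bp). Nearest genes here and below are named by position alone. Their distances are not given, and a link of site to gene was not tested. The intergenic sites nearest Arhgef4 and 1700034K08Rik had the same width in both lists, 193 and 185 bp. Those nearest 4930448K20Rik and Them5 were 319 and 173 bp, and 229 and 225 bp wide. At the site nearest Arhgef26 the 1000-cell peak was the wider, at 708 bp against 630 bp. The sites with a 50000-cell peak alone named next are the 17 widest of 203. Start sites were not counted over all 203, so their number here is not comparable with that of the recovered sites. Of these 17 widest sites, 13 lay at a start site. They included Galc (1187 bp), Prkacb, a catalytic subunit of protein kinase A (1130 bp), Tmem9b (1110 bp), Dbndd2 (1083 bp), Fndc3a (1052 bp), Mocs3, which acts in molybdenum cofactor synthesis (989 bp), the stress kinase Map3k5 (987 bp), Arhgap44 (946 bp), Rabep1 (904 bp) and P3h2, a collagen prolyl hydroxylase (902 bp). The site nearest Cdkn2c, a cyclin-dependent kinase inhibitor, was 1177 bp wide. Each site named here without a 1000-cell peak was wider in the 50000-cell list than the Rbm20, Kif21a, Tspyl5 and Haghl sites, because the widest were named first.

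**Figure D3:**
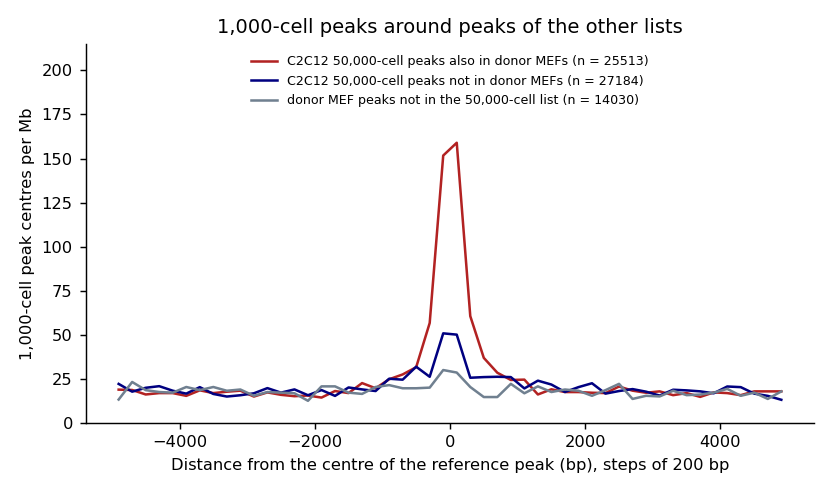
Density of 1000-cell peak centres (y axis, centres per Mb) by distance in bp from the centre of a reference peak (x axis, steps of 200 bp), for 50000-cell peaks also in donor MEFs, 50000-cell peaks not in donor MEFs, and donor MEF peaks absent from the 50000-cell list. The densities at the centre are 155, 50.4 and 29.2 per Mb, and beyond 2000 bp the lines scatter around means of 17.0, 17.9 and 17.2 per Mb.

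The position of 1000-cell peaks was followed around the peaks of the other lists. Within 200 bp of the centre of a 50000-cell peak also in donor MEFs, 1000-cell peak centres stood at 155 per Mb, against 17.0 per Mb between 2000 and 5000 bp away, a ratio of 9.13. Around the 50000-cell peaks not in donor MEFs the values were 50.4 and 17.9 per Mb, a ratio of 2.82. Around the 14030 donor MEF peaks absent from the 50000-cell list they were 29.2 and 17.2 per Mb, a ratio of 1.70. The 1000-cell list was therefore concentrated most at 50000-cell peaks also called in donor MEFs, which had a median width of 503 bp. The other groups were narrower, with medians of 321 and 338 bp, and the part of width in this difference was not tested.

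Among the 1000-cell peaks, the shared and the unshared differed strongly in their presence in MEFs. In the whole list 7.86% of peaks overlapped a peak of any MEF list. Of the shared peaks 76.0% (interval 74.4% to 77.5%) did, and of the unshared 1.55% (interval 1.42% to 1.69%). The difference was 74.4 percentage points (Newcombe interval 72.8 to 75.9). Part of it is set by the definition of the groups, since shared peaks lie on 50000-cell peaks. Of all 50000-cell peaks 48.4% overlapped a donor MEF peak. Of the recovered ones 74.9% did, and of the other 50000-cell peaks 46.8%. Of the shared peaks 71.4% overlapped a donor MEF peak, 21.8% a peak after NT and 39.2% a peak after NT with Toca1. For the unshared peaks the shares were 0.845%, 0.204% and 0.644%. In all 3 MEF lists stood 502 shared peaks and 5 unshared ones.

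Shared 1000-cell peaks were only a little wider than unshared ones. Their medians were 299.5 and 255 bp, a difference of 44.5 bp that was positive on 20 of 20 chromosomes, from 18 to 64 bp. The narrowest calls were more frequent in this list than in the other 4. It held 1962 peaks of 150 bp and 1104 that were 1 bp wider, together 8.82% of it, against 0.0816% of the 50000-cell list, 0.0379% of the donor MEF list, 0.824% of the list after NT and 0.530% of that after NT with Toca1. Peaks under 200 bp made up 20.8% of the 1000-cell list, 14.6% of the list after NT and 4.51% of the 50000-cell list. No peak in these lists was narrower than 150 bp. Of these narrowest 1000-cell peaks 3.10% (interval 2.54% to 3.77%) were shared. The share was higher in each wider class, with 7.54% from 200 to under 300 bp and 12.9% from 400 to under 600 bp, and reached 19.1% (interval 16.1% to 22.6%) of the 560 peaks of 600 bp or more. More than 80% of even the widest class were thus unshared.

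The widest shared 1000-cell peak, chr11:70481880-70482876, was 997 bp wide and lay on a 50000-cell peak of 1145 bp. It was followed by chr1:161322797-161323782, chr4:32702076-32702990, chr6:125327599-125328506 and chrX:17739272-17740168, which were 897 to 986 bp wide, and all 5 lay on a donor MEF peak. The widest 1000-cell peaks found in no other list were as wide. They were chr3:92156855-92157875 (1021 bp), chr8:32782954-32783970 (1017 bp), chr1:95678707-95679691 (985 bp) and a pair on chromosome 14 of 949 and 944 bp. Their distances to the nearest 50000-cell peak ran from 2663 to 86946 bp.

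Most unshared 1000-cell peaks lay more than 5000 bp from a peak of the larger list. The share that evenly placed positions would give was not computed, so these distances do not show that such peaks avoid the larger list. The median distance to the nearest 50000-cell peak was 20796 bp. Within 500 bp lay 2.84%, within 5000 bp 19.5% (interval 19.1% to 20.0%), and beyond 50000 bp 31.2%. For donor MEF peaks not in the 50000-cell list the median distance was 12263.5 bp, and for the peaks after NT with and without Toca1 it was 12125 and 12141 bp. Unshared peaks that overlapped a MEF peak stood closer to the larger list. Of these 492 peaks, 24.6% (interval 21.0% to 28.6%) lay within 500 bp of a 50000-cell peak, against 2.50% of the unshared peaks in no MEF list. Donor MEF peaks themselves lay on a 50000-cell peak in 64.6%, and the part of this in the contrast was not tested. Of the 5 unshared peaks found in all 3 MEF lists, singled out after their values were seen, chr2:31830057-31830328 and chr8:87427233-87427384 lay 5 and 27 bp from a 50000-cell peak. The peaks chr5:93522834-93523012 and chr10:13588295-13588747 lay 202 and 446 bp from one. Only chr2:178149550-178149844 was remote, at 251784 bp.

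Unshared peaks were spread more evenly over the genome than the 50000-cell and donor MEF peaks, but not evenly. Of 2559 bins of 1 Mb that held a peak of any list, 99.4% held an unshared peak and 90.2% a 50000-cell peak. The variance of the number per bin was 3.37 times its mean for unshared peaks, 12.4 times for 50000-cell peaks and 10.4 times for donor MEF peaks. When bins were ranked by their number of 50000-cell peaks and split into 4 classes, unshared peaks averaged 7.52, 11.3, 14.2 and 16.7 per Mb from the poorest class to the richest, a ratio of 2.22. Shared peaks averaged 0.0922, 0.592, 1.30 and 2.63 per Mb. In the 250 bins without any 50000-cell peak, unshared peaks still stood at 7.07 per Mb, where donor MEF peaks stood at 0.992 per Mb. Across bins, the Spearman coefficient with the number of 50000-cell peaks was 0.56 for unshared peaks, 0.69 for shared peaks and 0.90 for donor MEF peaks, as a description over bins, which are not independent and share chromosomes and base composition.

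**Figure D4:**
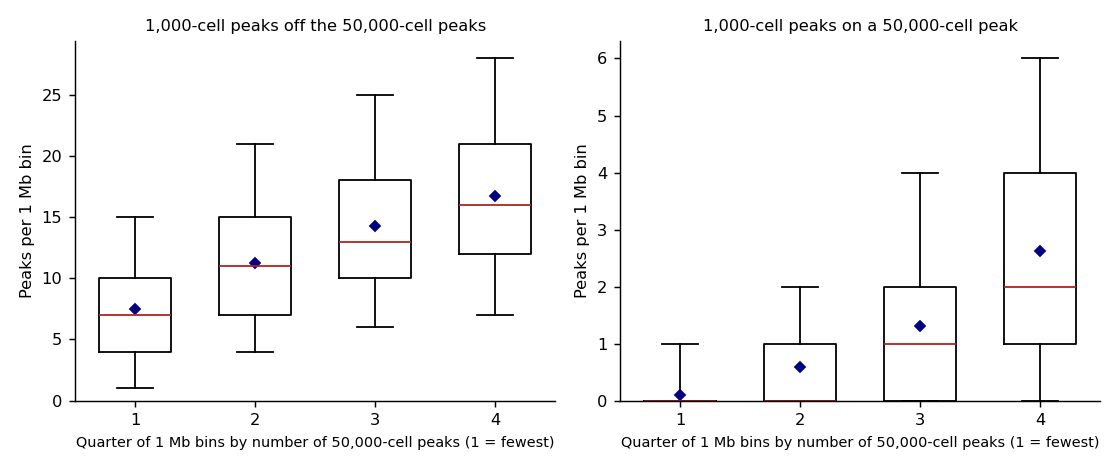
Number of 1000-cell peaks per 1 Mb bin (y axes) in 4 classes of bins by their number of 50000-cell peaks (x axes, 1 has the fewest), for unshared peaks (left) and shared peaks (right). Boxes span the quartiles with the median as a line, whiskers reach from the 5th to the 95th percentile and diamonds are means. Mean unshared peaks rise from 7.52 to 16.7 per bin and mean shared peaks from 0.0922 to 2.63.

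The largest numbers of 1000-cell peaks in a bin fell where the larger list was dense. The pair of bins with 41 of them, chr5:118000001-119000000 and chr8:87000001-88000000, belonged to the richest class by 50000-cell peaks, with 34 and 75. In the first 2 of the 41 were shared and in the second 9 were.

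Chromosomes differed in the same way. The 50000-cell list was sparsest on chromosome X, at 7.45 peaks per Mb against a median of 20.0, and so was the donor MEF list, at 5.32 against 15.6. Unshared 1000-cell peaks were also sparsest there, but at 8.59 per Mb against a median of 11.9, and chromosome X was the only chromosome on which they outnumbered the 50000-cell peaks. Chromosome 10 held the highest density of unshared peaks, 17.3 per Mb, and chromosome 15 the highest densities of 50000-cell peaks and of shared peaks, 28.9 and 1.98 per Mb.

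**Figure D5:**
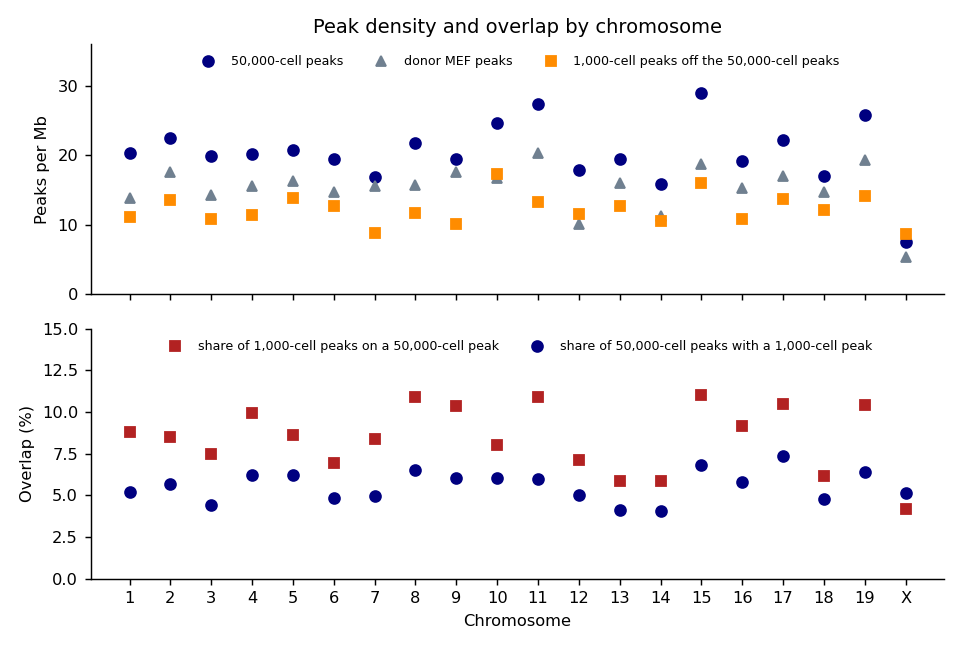
Peaks per Mb (upper panel) and overlap in percent (lower panel) for each of 20 chromosomes (x axis). On chromosome X the unshared 1000-cell peaks (8.59 per Mb) lie above the 50000-cell peaks (7.45 per Mb), and the share of 1000-cell peaks on a 50000-cell peak is the lowest, at 4.16%.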

How the data were processed

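ATAC-seq peak lists of 5 conditions (8 libraries) were used. The authors deposited 1 list per condition, which holds chromosome, start, end and a name made of these for each peak that passed a false discovery rate of 0.01. The submitters' processing notes name Bowtie2 2.2.1, Picard, MACS2 2.1 and the mm9 build. Whether libraries were pooled before calling is not given in the sources used here, and depth is unknown. The 1000-cell list was tied to its condition by its name. Starts were made 1-based. An overlap of 1 bp or more made peaks of different lists shared. Shares carry 95% Wilson intervals and differences Newcombe intervals. The span of a chromosome is the largest peak end over the lists. No test was run, since 1 list stands for each cell number.

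The comparisons, settings and site rules were chosen with earlier results of these data known. Named sites were the 5 widest of each class, the 3 stretches with most peaks of each list, the pair of bins with most 1000-cell peaks, and up to 20 sites with a gene in the study's tables. The copy of 1 of those tables is shortened, so numbers of sites cover the rows at hand and were not tested. Of the genes at start sites, Rbm20, Tspyl5, Dbndd2, Fndc3a, B630019K06Rik, Rabep1, P3h2, Prrc1 and A230046K03Rik had no promoter in the RefSeq table, and the first pair of genes per group with a single promoter entry was printed. The count of centres per Mb of peak, the width ratios and the comparison of edges were added after the data were seen. The overlap code was tested on simulated peaks and checked against bedtools 2.31.1, which gave the same number in 8 of 8 pairs of lists. Python 3.11.15, numpy 2.4.6, pandas 2.3.3 and matplotlib 3.10.9 were used.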

Additional observations from a re-analysis of the deposited data

How the results depend on the processing

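Each of the 10 main values was recomputed with other settings, 60 values in all. Of these, 28 stayed within the interval of the main value (for the width difference and the bin ratio, within 1 SD over chromosomes), 32 moved outside it, and none reversed a difference whose interval excluded 0. A reciprocal overlap of at least 50% gave 3.13% shared 1000-cell peaks and 2.06% recovered 50000-cell peaks. With it the differences in recovery were 0.78 points by width, 0.52 by neighbour, 1.97 by donor MEF and 6.17 between all 3 and no MEF lists, the difference in MEF overlap was 58.6 points, 24.0% of unshared peaks lay within 5000 bp and the width difference was 109.0 bp. When a gap of up to 500 bp still made peaks shared, 11.1% were shared and 8.19% recovered, and the differences were 13.8 points by width, 1.34 by neighbour, 6.38 by donor MEF and 70.8 for MEF overlap. With peaks of at least 250 bp 10.3% were shared and 4.42% recovered, the differences were 12.07 points by width, 4.92 by donor MEF, 15.2 by number of MEF lists and 79.0 for MEF overlap, 16.6% lay within 5000 bp and the width difference was 22.0 bp. Joining peaks up to 150 bp apart gave 5.88% recovered, and autosomes alone gave 20.0% within 5000 bp. Within width classes the differences were 1.05 (neighbour), 3.20 (donor MEF) and 7.71 points (MEF lists). With the 50000-cell list cut to its widest peaks, as many as the 1000-cell list holds, 7.50% were shared and 7.45% recovered. Within 1000 bp lay 4.97% of unshared peaks and within 10000 bp 32.8%. The difference by neighbour was -0.12 in the main setting, positive with 3 others that moved it, 0.17 and 0.03 with a neighbour within 1000 and 10000 bp, and -0.46 (interval -0.88 to -0.04) with joined peaks, so its direction depends on the setting. The cause of these shifts was not tested. No paired analysis was possible because 1 list stands for both libraries of a cell number, and for the same reason no library could be left out. Depth is unknown, so a site without a peak in a list was not shown to be closed.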

Other observations

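A small set of sites had the same boundaries at both cell numbers, a comparison chosen after the data were seen. In 5 pairs the 1000-cell and the 50000-cell peak started and ended at the same base, and in 18 pairs both edges agreed within 10 bp, which is 0.610% (Wilson interval 0.386% to 0.962%) of the 2950 shared peaks. Of the donor MEF peaks on a 50000-cell peak, 2.13% (545 of 25562) had both edges within 10 bp. The 5 identical pairs were chr1:34809841-34810033, for which the study's tables give Arhgef4 as nearest gene, chr9:93069486-93069670, nearest 1700034K08Rik, chr10:79604848-79605259, chr11:90399812-90400521 and chr12:114172550-114172727. They were 193, 185, 412, 710 and 178 bp wide. The first pair of sites was called after NT with and without Toca1 but not in donor MEFs, the site on chromosome 11 was called in all 3 MEF lists, and the site on chromosome 12 in none.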
